A study of Mus musculus with 32 samples.

Results

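The miR-30 family is a group of microRNAs that share the seed, the short stretch near the 5′ end through which a microRNA (miRNA) recognises its target mRNAs. Those described here are made from 6 hairpin genes in the mouse. Each hairpin is cut into a pair of strands. The main strand is the one that is mostly loaded into the silencing complex, and the passenger strand, marked with an asterisk, comes from the opposite arm and mostly decays. The 10 members were taken by name, and all 10 were found on both arrays used here: the main strands miR-30a, miR-30b, miR-30c, miR-30d and miR-30e, and the passenger strands miR-30a*, miR-30b*, miR-30c-1*, miR-30c-2* and miR-30e*. They are 10 of the 608 miRNAs common to both arrays. A total of 485 of these was tested, namely those that the study lists as present on 1 or both platforms. The 5 main strands, miR-30a* and miR-30e* are listed as present on both platforms (7 members), whereas miR-30b*, miR-30c-1* and miR-30c-2* (3 members) are listed as present on Affymetrix only.

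Heart muscle is rich in miR-30, which is known to target connective tissue growth factor and in cultured cardiomyocytes is known to act on mitochondrial fission. The miR-30a hairpin is also the backbone of many vectors for artificial hairpin RNAs. These are background facts and were not measured here.

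All samples came from 1 transgenic clone (aPIG 44) of the mouse embryonic stem (ES) cell line D3, in which the alpha-MHC promoter, active in cardiomyocytes, drives Pac (puromycin resistance) and, through an IRES, EGFP. Day 0 is the undifferentiated clone, which was grown on mouse embryonic fibroblasts with LIF before a last passage on gelatin. Days 12, 19 and 26 are Cor.At cardiomyocytes, obtained from embryoid bodies of the same clone by puromycin selection and taken from cultures of increasing age. The study asked which miRNAs change with differentiation and maturation, and how far the answer depends on the platform. RNA of 2 cultures per day, called a and b, was hybridized to an Affymetrix array and to a Febit array, 8 arrays per platform. The culture text of the labels and the methods of the study differ for days 19 and 26, and the titles of the records were followed.

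The strands shown next carry the comparison of main and passenger strands, and of near-identical members. They are mature miRNAs of RefSeq (GRCm38.p6), printed 5′ to 3′ with the seed (bases 2 to 8) in capitals. For 7 of the 10 members the table held a sequence.
miR-30a: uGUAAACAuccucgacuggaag
miR-30e: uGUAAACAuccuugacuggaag
miR-30c: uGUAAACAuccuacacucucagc
miR-30a*: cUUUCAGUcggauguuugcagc
miR-30e*: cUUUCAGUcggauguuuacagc
miR-30c-1*: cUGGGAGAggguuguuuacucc
miR-30c-2*: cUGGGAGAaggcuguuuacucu

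The 3 main strands printed share 1 seed and their first 12 bases. In the RefSeq table miR-384-5p, which is not among the members, also carries this seed. miR-30a and miR-30e differ at 1 of 22 positions, C13U (miR-30a first, positions counted from the 5′ end), and miR-30a* and miR-30e* also differ at 1 position, G18A. The passenger strands carry other seeds than the main strands, with miR-30a* and miR-30e* sharing UUUCAGU and miR-30c-1* and miR-30c-2* sharing UGGGAGA. miR-30c-1* and miR-30c-2* differ at 3 of 22 positions, G9A, U12C and C22U. Cross-hybridization between strands this alike was not tested.

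Both strands of a hairpin come from opposite arms, as shown for the hairpin of miR-30e, with miR-30e and miR-30e* in capitals in this order.
Mir30e: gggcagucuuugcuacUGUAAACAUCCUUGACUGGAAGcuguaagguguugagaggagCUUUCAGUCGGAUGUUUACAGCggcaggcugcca

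The hairpin genes lie in 3 pairs on the GRCm38.p6 assembly. Mir30a (chr1:23272269-23272339) and Mir30c-2 (chr1:23291701-23291784) are separated by 19361 bases, and neither lies within another gene of the RefSeq table. Mir30c-1 (chr4:120769534-120769622) and Mir30e (chr4:120772606-120772697) are separated by 2983 bases and lie within the span of Nfyc, which encodes a subunit of the transcription factor NF-Y. Whether they fall in an intron or an exon of Nfyc is not given by that table, which also lists Mir30f over the span of Mir30e. Mir30b (chr15:68337415-68337510) and Mir30d (chr15:68341208-68341289) are separated by 3697 bases and lie within no other gene of the table. miR-30c is made from both Mir30c-1 and Mir30c-2, and the arrays do not tell these sources apart.

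Before the members are described, the labels were checked against marker miRNAs. On Affymetrix 3 to 5 of the 6 cardiac and striated muscle miRNAs (miR-1, miR-133a, miR-133b, miR-208a, miR-208b and miR-499) were called higher at days 12, 19 and 26, and on Febit 3 to 5 of 6. Of 11 tested ES cell miRNAs 9 were called lower on Affymetrix and 6 on Febit at each day, and 1 was called higher on Affymetrix at days 12 and 26. The 5 fibroblast miRNAs had mean VSN values of 3.11 and 4.19 at day 0 and of 5.25 and 5.98 at day 26 on Affymetrix. On Febit these means were 7.01 and 7.32 at day 0 and 7.49 and 7.56 at day 26. At day 26, 2 of 5 were called higher on Affymetrix and 1 of 5 on Febit. At days 12 and 19, 1 of 5 was called higher on each platform, and at day 19 1 of 5 was called lower on Febit. Neither endothelial miRNA was called on either platform. Of the 3 liver miRNAs 2 or 3 were called higher on Affymetrix, and on Febit, where they were not called, their median log2 fold change was 0.54 to 1.07. Of 3 tested blood miRNAs none and of 2 tested nervous tissue miRNAs at most 1 was called higher. The part of these markers in the results on miR-30 was not tested. Titles of the Febit non-VSN arrays day 12 a and day 19 b disagree with the raw arrays. Each follows the raw array of the other (Spearman over miRNAs 1.0, against 0.198 with its own). Every Febit VSN array follows the raw array of its own title (Spearman 1.0), so the raw and VSN titles agree. The non-VSN values are given both ways.

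All 5 main strands had their lowest Affymetrix values in ES cells and were called higher in cardiomyocytes at days 12, 19 and 26. Values are log2 after VSN (variance stabilization), and on this scale a difference is not a plain ratio near the background. Differences between weak signals can come out large on it. For miR-30b* the Affymetrix log2 fold change at day 26 was 2.61 with VSN and 0.78 with RMA, the other normalization. For miR-30e* on Febit, raw medians of 1016 (day 0 a) and 864 (day 12 a) became VSN values of 7.58 and 4.20. miR-30a, a main strand from chromosome 1, had values of 2.38 and 1.90 at day 0, 6.94 and 6.73 at day 12, 6.56 and 7.79 at day 19, and 8.99 and 8.30 at day 26. Every later array lay above both day 0 arrays, and the day 26 arrays were the highest. By limma the log2 fold change against day 0 was 4.70 at day 12, 5.03 at day 19 and 6.51 at day 26 (SE 0.52 each), with adjusted p of 3.6e-05, 1.4e-05 and 1.7e-06. A higher value in such bulk RNA can come from more cells that hold a miRNA or from more of it per cell, which cannot be told apart.

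miR-30d, from the pair on chromosome 15, had 3.10 and 3.58 at day 0, 8.12 and 7.66 at day 12, 8.34 and 8.44 at day 19, and 9.56 and 9.34 at day 26. Its 4 days did not overlap and followed the order of age. The log2 fold change was 4.55, 5.05 and 6.11 at days 12, 19 and 26 (SE 0.44 each, adjusted p at most 1.1e-05). Its neighbour miR-30b had 2.58 and 4.23 at day 0, 7.38 and 6.66 at day 12, 7.25 and 6.53 at day 19, and 8.78 and 8.59 at day 26. The day 0 cultures of miR-30b were further apart than those of miR-30d, yet every later array lay above both. Its log2 fold change was 3.62, 3.48 and 5.28 (SE 0.58, adjusted p at most 0.00057).

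miR-30c, which has 2 source hairpins, had 6.65 and 7.43 at day 0, 10.19 and 9.71 at day 12, 9.59 and 8.91 at day 19, and 10.50 and 10.54 at day 26. Among the main strands it had the smallest log2 fold change at days 19 and 26, 2.21 and 3.48 (SE 0.48), after 2.91 at day 12. miR-30e, which differs from miR-30a by 1 base, had 1.19 and 2.07 at day 0, 4.09 and 3.93 at day 12, 3.94 and 4.76 at day 19, and 6.25 and 5.53 at day 26. Its values at days 12 and 19 overlapped, while day 26 lay above all others. The log2 fold change of miR-30e was 2.38, 2.72 and 4.26 (SE 0.51, adjusted p at most 0.0032).

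**Figure D1:**
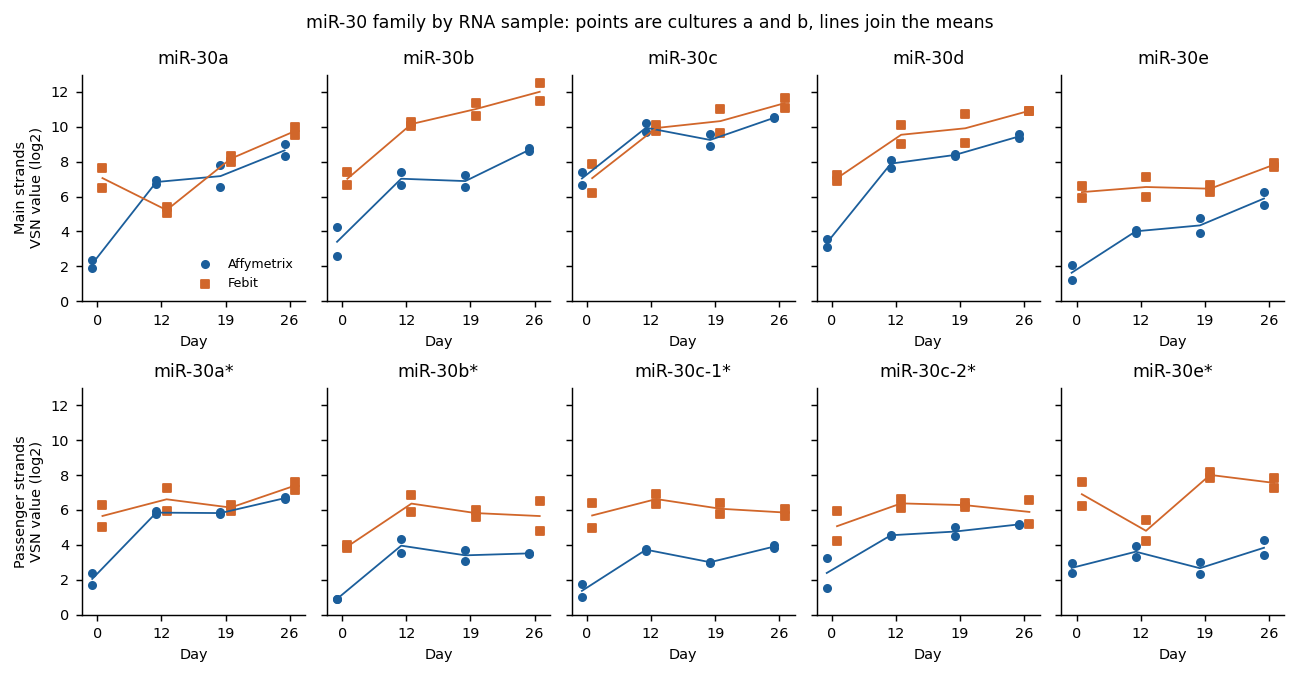
VSN values (log2) of the 10 members against day, with circles for Affymetrix, squares for Febit, 1 point per culture and lines through the means of 2 cultures. On Affymetrix the main strands lie lowest at day 0, and on Febit miR-30a and miR-30e* lie lowest at day 12.

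Among the passenger strands, 4 of 5 were higher in cardiomyocytes on Affymetrix and miR-30e* did not pass the test. miR-30a* had 2.40 and 1.68 at day 0, 5.93 and 5.76 at day 12, 5.89 and 5.74 at day 19, and 6.62 and 6.72 at day 26, so that all 6 cardiomyocyte arrays lay between 5.74 and 6.72. The log2 fold change of miR-30a* was 3.80, 3.78 and 4.63 (SE 0.44, adjusted p at most 4.7e-05). miR-30b* rose from 0.89 and 0.91 at day 0 to 3.55 and 4.35 at day 12, and had 3.07 and 3.72 at day 19 and 3.49 and 3.52 at day 26. All later arrays of miR-30b* lay above day 0, and those of day 19 overlapped both day 12 and day 26. Its log2 fold change was 3.05, 2.5 and 2.61 (SE 0.47, adjusted p at most 0.0013).

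The passenger strands of both miR-30c hairpins were also called at each day. miR-30c-1* had 1.72 and 0.99 at day 0, 3.78 and 3.66 at day 12, 3.04 and 2.96 at day 19, and 3.79 and 4.01 at day 26, with log2 fold changes of 2.36, 1.64 and 2.54 (SE 0.44, adjusted p at most 0.013). miR-30c-2* had 1.54 and 3.23 at day 0, 4.58 and 4.52 at day 12, 4.53 and 4.99 at day 19, and 5.13 and 5.21 at day 26, with log2 fold changes of 2.16, 2.38 and 2.79 (SE 0.55, adjusted p at most 0.0097). The day 0 cultures of miR-30c-2* differed by 1.69 on the log2 scale, and both lay below every cardiomyocyte array. Its call at day 12 was lost without day 0 a (1.32, adjusted p 0.079), without day 12 a (2.13, adjusted p 0.055) and after centring or quantile normalization (1.40 and 1.61, adjusted p 0.067 and 0.089), and that of miR-30c-1* at day 19 without day 0 b (1.28, adjusted p 0.072) or day 19 a (1.60, adjusted p 0.059). miR-30e*, the opposite strand of miR-30e, had 2.96 and 2.38 at day 0, 3.92 and 3.28 at day 12, 2.30 and 3.01 at day 19, and 4.27 and 3.39 at day 26. Its day 19 arrays overlapped those of day 0. The log2 fold changes of miR-30e* were 0.93 (95% confidence interval -0.18 to 2.05), -0.01 (-1.13 to 1.10) and 1.16 (0.04 to 2.27), with adjusted p of 0.20, 0.98 and 0.096.

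In counts, 9 of 10 members were called higher on Affymetrix (adjusted p under 0.05 over the 485 tested miRNAs) at each of days 12, 19 and 26, and none lower. Of all tested miRNAs 26.2%, 22.7% and 29.5% were called higher at these days, and 32.4%, 33.6% and 39.8% were called in either direction. Both arrays of a day lay above both day 0 arrays for 10, 9 and 10 members, against 44.3%, 37.9% and 46.0% of all tested miRNAs. The median log2 fold change was 3.62, 3.48 and 5.28 for the main strands and 2.36, 2.38 and 2.61 for the passenger strands, beside 0.34, 0.22 and 0.41 over all tested miRNAs. The 3 comparisons share their day 0 arrays. Centring each array on its median lowered the log2 fold change at day 12 from 4.7 to 3.93 for miR-30a and from 3.8 to 3.04 for miR-30a*. After centring, 8 of 10 members were called at day 12 (without miR-30c-2*), and 9 at days 19 and 26.

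On Febit, hybridized with the same RNA, miR-30b, miR-30c and miR-30d were called higher in cardiomyocytes at all 3 days and miR-30a at day 26, while miR-30e was not called. miR-30b had VSN values of 7.40 and 6.65 at day 0, 10.26 and 10.06 at day 12, 11.39 and 10.64 at day 19, and 11.50 and 12.52 at day 26. The days of miR-30b did not overlap and followed the order of age. By limma it was higher than at day 0 by 3.14, 4.0 and 4.99 (SE 0.65, adjusted p 0.015, 0.0055 and 0.0011).

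miR-30c on Febit had 6.23 and 7.89 at day 0, 10.11 and 9.76 at day 12, 11.00 and 9.66 at day 19, and 11.06 and 11.66 at day 26. Its cultures at day 0 and at day 19 differed by more than 1 unit, and days 12 and 19 overlapped. The log2 fold change was 2.88, 3.27 and 4.30 (SE 0.75, adjusted p 0.036, 0.025 and 0.0055). miR-30d had 7.24 and 6.87 at day 0, 10.09 and 9.00 at day 12, 10.75 and 9.09 at day 19, and 10.91 and 10.93 at day 26. All its cardiomyocyte arrays lay above day 0, with days 12 and 19 overlapping. The log2 fold change was 2.49, 2.86 and 3.87 (SE 0.72, adjusted p 0.048, 0.039 and 0.0075).

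miR-30a took another course on Febit. It had 7.62 and 6.5 at day 0, 5.05 and 5.40 at day 12, 8.35 and 8.0 at day 19, and 9.5 and 10.01 at day 26, so that both day 12 arrays lay below all others and day 19 and day 26 above day 0. The log2 fold change against day 0 was -1.83 at day 12 (95% confidence interval -3.25 to -0.42, adjusted p 0.083), 1.11 at day 19 (adjusted p 0.35) and 2.69 at day 26 (adjusted p 0.020). miR-30e, with 5.92 and 6.60 at day 0, 7.14 and 5.96 at day 12, 6.67 and 6.24 at day 19, and 7.72 and 7.95 at day 26, overlapped day 0 until day 19 and lay above it at day 26. Its log2 fold change was 0.29, 0.20 and 1.58 (SE 0.65), with an adjusted p of 0.16 at day 26.

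Of the passenger strands on Febit, miR-30b* alone was called in a comparison with day 0. It had 4.0 and 3.80 at day 0, 5.87 and 6.86 at day 12, 5.62 and 6.02 at day 19, and 6.5 and 4.80 at day 26, with a log2 fold change of 2.47 at day 12 (SE 0.72, adjusted p 0.049). miR-30b* is listed as absent on Febit, and its raw signal was 0.896 and 0.837 times the array median at day 0 and 0.967 and 1.02 times at day 12. miR-30a* had 5.03 and 6.28 at day 0, 5.95 and 7.27 at day 12, 5.96 and 6.30 at day 19, and 7.17 and 7.61 at day 26. Both arrays of miR-30a* cleared both day 0 arrays at day 26 and not at the other days, and its log2 fold change there was 1.74 (adjusted p 0.16). miR-30c-1* ranged from 4.95 to 6.93 and miR-30c-2* from 4.22 to 6.65 over the 8 arrays, and their log2 fold changes lay between 0.17 and 1.31.

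miR-30e* on Febit resembled miR-30a in being lowest at day 12. It had 7.58 and 6.22 at day 0, 4.20 and 5.40 at day 12, 8.18 and 7.83 at day 19, and 7.82 and 7.27 at day 26. Its log2 fold change against day 0 was -2.10 at day 12 (95% confidence interval -3.68 to -0.52, adjusted p 0.078), 1.11 at day 19 and 0.65 at day 26. The raw signals behind this dip were close together, with feature medians of 1016 and 908 at day 0 and 864 and 900 at day 12 for miR-30e*, and 1020 and 928 at day 0 and 900 and 900 at day 12 for miR-30a. The SD between the 8 features of miR-30e* was 102 and 98.4 on the day 0 arrays and 102 and 86.0 at day 12.

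In counts, 4, 3 and 4 of 10 members were called higher on Febit at days 12, 19 and 26, and none lower. Of all tested miRNAs 5.77%, 5.36% and 10.5% were called higher, and 14.2%, 7.84% and 12.8% in either direction. Both arrays of a day lay above both day 0 arrays for 5, 7 and 7 members, against 21.6%, 29.7% and 26.6% of all tested miRNAs, and 2 members (miR-30a and miR-30e*) lay below day 0 at day 12, as did 28.5% of all. The median log2 fold change was 2.49, 2.86 and 3.87 for the main strands and 0.96, 1.11 and 0.82 for the passenger strands, beside -0.02, 0.06 and 0.02 over all tested miRNAs. These counts rested on few arrays. At day 12 the count was 0 without day 12 a or without day 12 b, and 1 without any of day 0 a, day 19 a, day 19 b, day 26 a or day 26 b. At day 19 it was 0 without day 19 a, and 1 without day 19 b, day 26 a or day 26 b, and 2 without day 0 a or day 0 b. At day 26 it was 2 without day 26 a and 1 without day 26 b.

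**Figure D2:**
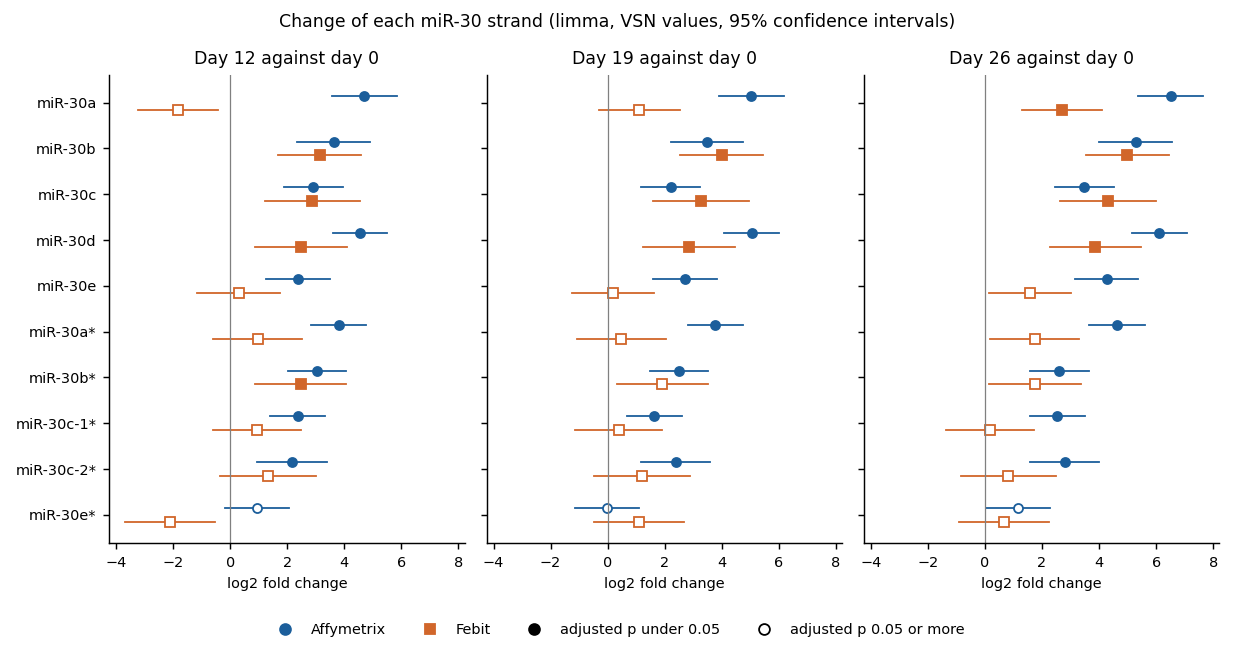
Log2 fold change against day 0 of each member by limma on VSN values, with 95% confidence intervals, for Affymetrix (circles) and Febit (squares), filled where the adjusted p was under 0.05. On Affymetrix 9 of 10 members are filled at each day, and on Febit 4, 3 and 4.

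The raw Febit signals show which members moved away from the array median before any normalization. Each value is the median of 8 features (of 6 or 7 in 8 of the values), given as a multiple of the median of all miRNAs on that array. This median ranged from 928 to 992 on 7 arrays but was 228 for day 26 b, so multiples on day 26 b rest on a smaller divisor. The raw signal of miR-30b was 5081 on day 26 a and 4589 on day 26 b. For miR-30b the multiple was 1.04 and 1.01 at day 0, 2.13 and 2.18 at day 12, 4.15 and 2.53 at day 19, and 5.12 and 20.1 at day 26. For miR-30c it was 0.971 and 1.18, then 2.01 and 1.93, then 3.37 and 1.72, and 3.99 and 11.4 at day 26. For miR-30d it was 1.03 and 1.03, then 2.00 and 1.5, then 2.98 and 1.45, and 3.70 and 7.19. In all 3 the ES cell arrays lay between 0.971 and 1.18 and the cardiomyocyte arrays at 1.45 or above.

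For miR-30a the multiple was 1.06 and 0.996 at day 0, 0.930 and 0.915 at day 12, 1.28 and 1.16 at day 19, and 1.93 and 4.16 at day 26. The day 26 arrays stood out from the rest. miR-30e lay between 0.947 and 1.06 until day 19 and reached 1.17 and 1.58 at day 26. The 5 passenger strands lay between 0.754 and 1.40 on all 8 arrays. Among them miR-30e* had 1.24 and 1.13 at day 19 and 0.893 and 0.915 at day 12, the same order as in its VSN values. Without day 26 b, 1 main strand was still called on Febit at day 26 (miR-30b, log2 fold change 4.48, adjusted p 0.033), with 4.0 for miR-30c and 3.86 for miR-30d (adjusted p 0.083 for both) and 2.44 for miR-30a (adjusted p 0.15).

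**Figure D3:**
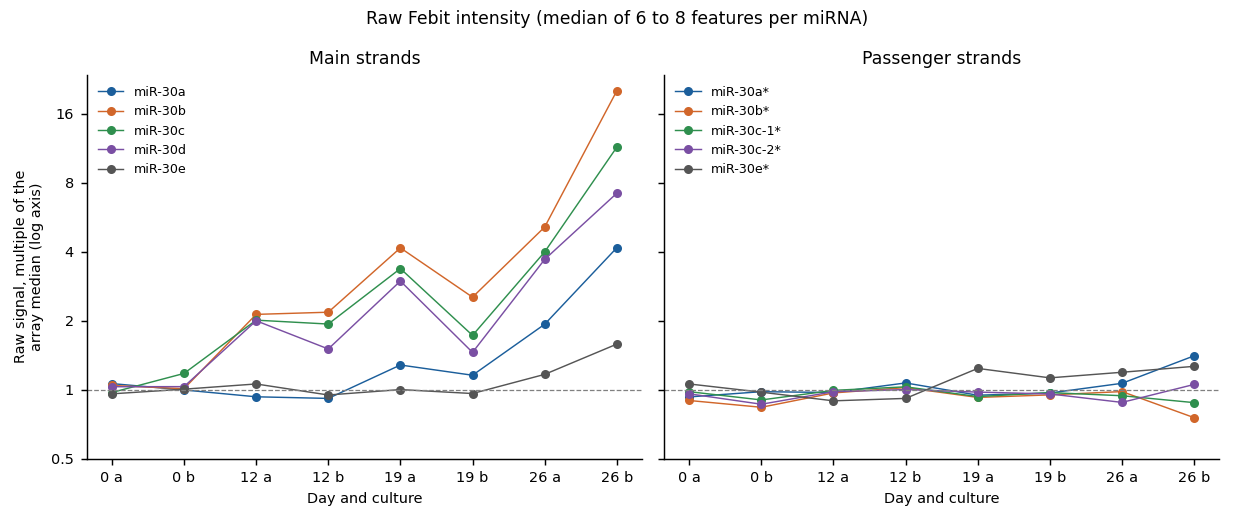
Raw Febit signal of each member (median of 6 to 8 features) as a multiple of the array median, on a log axis, for the 8 arrays in order of day and culture. miR-30b, miR-30c and miR-30d rise from about 1 at day 0 to 3.70 or more at day 26, while the passenger strands stay between 0.754 and 1.40.

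The main and passenger strands of a hairpin were compared through the difference between them on each array, which asks whether they changed by different amounts and does not compare their levels. There were 5 such pairs in the family (miR-30c enters with each of its passenger strands) among 82 pairs tested. On Affymetrix at day 26 the main strand had risen more than the passenger strand in 3 of 5 pairs, by 3.10 log2 units for miR-30e over miR-30e* (SE 0.61, adjusted p 0.0012), 2.67 for miR-30b over miR-30b* (SE 0.75, adjusted p 0.011) and 1.88 for miR-30a over miR-30a* (SE 0.62, adjusted p 0.025). At day 19 the pair of miR-30e was called alone (2.73, SE 0.61, adjusted p 0.003), and at day 12 none was, with 1 of 5 at an unadjusted p under 0.05 by limma against 36.6% of all pairs. miR-30c and its passenger strands differed by 0.94 (95% confidence interval -0.42 to 2.30) and 0.70 (-0.63 to 2.02) at day 26. Of all 82 pairs 28%, 41.5% and 43.9% were called in either direction at days 12, 19 and 26. The median difference was 0.75, 0.98 and 1.88 over the 5 pairs of the family, beside 0.73, 0.72 and 0.84 over all pairs.

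On Febit 3 of 5 pairs were called at day 26, partly other ones, and the difference between platforms was not tested for pairs. There the change of miR-30c exceeded that of miR-30c-1* by 4.13 (SE 1.18, adjusted p 0.029) and that of miR-30c-2* by 3.48 (SE 1.14, adjusted p 0.049). That of miR-30b exceeded that of miR-30b* by 3.24 (SE 1.06, adjusted p 0.049). These passenger strands are listed as absent on Febit. Their raw signals at days 0 and 26 were 0.754 to 1.05 times the array median. The differences thus set a main strand against readings near the array median, and do not compare 2 strands that were both detected. The pairs of miR-30a (0.96, 95% confidence interval -1.22 to 3.14) and miR-30e (0.93, -1.44 to 3.30) were not called. At days 12 and 19 no pair was called, with 2 and 1 of 5 at an unadjusted p under 0.05 by limma against 30.5% and 20.7% of all pairs, including miR-30a minus miR-30a* at day 12, which was -2.79 (adjusted p 0.084). Of all pairs 12.2%, 9.76% and 25.6% were called in either direction at days 12, 19 and 26. The median difference was 1.57, 2.07 and 3.24 over the 5 pairs of the family, beside 0.32, 0.62 and 0.88 over all pairs. miR-30b over miR-30b* was the pair called on both platforms. The Febit count at day 26 of 3 was 0 without day 0 a, day 12 a, day 12 b or day 26 b, and 1 without day 19 a, day 19 b or day 26 a. Without day 0 b, 4 pairs were called at day 12 and 2 at day 19. On Affymetrix the day 26 count of 3 was 1 without day 0 a, the day 19 count of 1 was 2 without day 19 a, and the day 12 count of 0 was 1 without day 0 b.

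**Figure D4:**
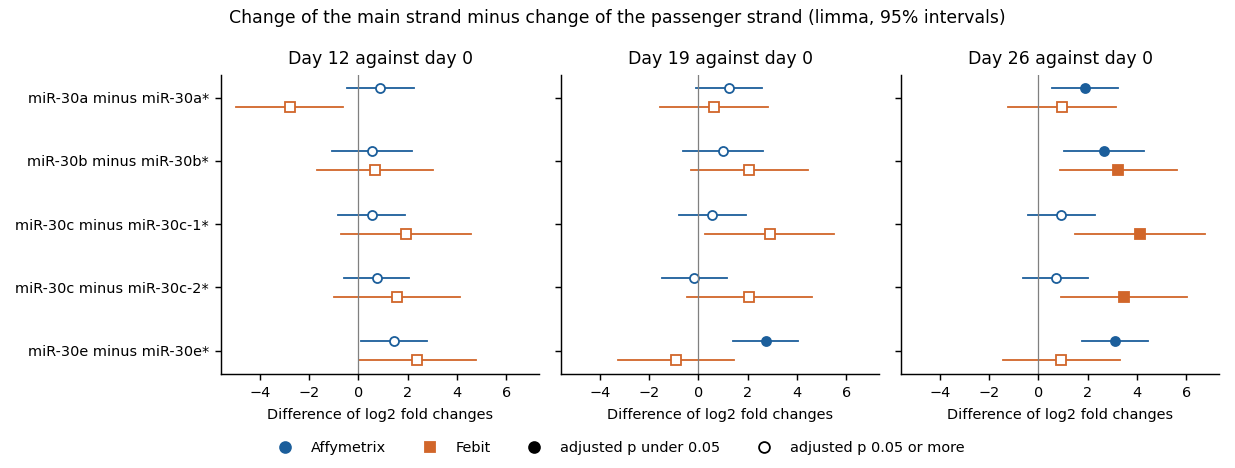
Change of the main strand minus change of the passenger strand of each hairpin (log2, limma, 95% confidence intervals), for Affymetrix (circles) and Febit (squares), filled where the adjusted p was under 0.05. At day 26 the pairs called on Affymetrix are those of miR-30a, miR-30b and miR-30e, and on Febit those of miR-30b and miR-30c.

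Between the cardiomyocyte ages, no member was called on Affymetrix with VSN values. Day 19 against day 12 gave 0 of 10 members by limma (0.412% of all tested miRNAs called), and also 0 of 10 at an unadjusted p under 0.05, against 15.1% of all. Day 26 against day 12 gave 4 of 10 at an unadjusted p under 0.05, against 18.4% of all tested miRNAs, and none after adjustment, against 4.12% of all. These 4 were main strands, with log2 fold changes of 1.88 for miR-30e (adjusted p 0.067), 1.81 for miR-30a (0.074), 1.66 for miR-30b (0.12) and 1.56 for miR-30d (0.073). With RMA values miR-30d (1.14, adjusted p 0.012) and miR-30e (1.04, adjusted p 0.045) were called in this comparison, beside 41 of all 485 tested miRNAs. With VSN values the count after adjustment was 2 without day 19 a and 2 without day 19 b. Day 26 against day 19 gave 6 of 10 at an unadjusted p under 0.05, against 15.1% of all tested miRNAs, and none after adjustment, as among all miRNAs (0%).

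On Febit 2 members rose after day 12. miR-30a was 2.95 higher at day 19 (SE 0.63, adjusted p 0.022) and 4.53 higher at day 26 (adjusted p 0.015) than at day 12, and miR-30e* was 3.20 (SE 0.71, adjusted p 0.022) and 2.75 (adjusted p 0.036) higher. Of all tested miRNAs 13.8% were called at day 19 against day 12 and 10.1% at day 26 against day 12. Both start from the low day 12 values described above. No member was called at day 26 against day 19 (0% of all tested miRNAs by limma), with 1 of 10 at an unadjusted p under 0.05 against 4.74% of all. The count at day 19 against day 12 was 0 without day 12 a, day 12 b, day 19 a or day 19 b. At day 26 against day 12 it was 0 without day 12 a, day 12 b, day 26 a or day 26 b, and 1 without day 19 a or day 19 b. In the non-VSN values by title, the log2 fold change from day 12 to day 19 was 0.07 for miR-30a and -0.12 for miR-30e*. With day 12 a and day 19 b exchanged it was 1.21 and 1.23 (adjusted p 0.074 for both by limma). From day 12 to day 26 miR-30a had 1.55 by title (adjusted p 0.51) and 2.12 with the exchange (adjusted p 0.015). For miR-30e* these values were 0.29 (adjusted p 0.97) and 0.96 (adjusted p 0.12).

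As the same RNA was on both arrays, the platforms were compared sample by sample through the Affymetrix value minus the Febit value. The platforms differ in range, so a difference in change can be one of scale, which was not tested. Its median at days 12, 19 and 26 was 1.74, 1.21 and 2.11 over the 10 members. Over all tested miRNAs it was 0.58, 0.24 and 0.32. For miR-30a the Affymetrix change exceeded the Febit change at days 12, 19 and 26, by 6.53 log2 units at day 12 (SE 0.90, adjusted p 0.00012), 3.92 at day 19 (adjusted p 0.016) and 3.81 at day 26 (adjusted p 0.014). miR-30a* from the same hairpin changed more by 2.85 at day 12 (SE 0.93, adjusted p 0.042) and 3.29 at day 19 (adjusted p 0.036), with 2.89 at day 26 (adjusted p 0.059). miR-30e* differed by 3.03 at day 12 (SE 0.91, adjusted p 0.029). The other members were not called, among them miR-30d and miR-30e with differences from 2.06 to 2.68 (adjusted p 0.065 to 0.15). For miR-30b the differences were 0.48, -0.51 and 0.29 (SE 0.94), and for miR-30c 0.04, -1.06 and -0.82 (SE 0.84), with 95% confidence intervals that reached from -2.51 to 2.47 and from -2.85 to 1.82 over the 3 days.

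In all, 3, 2 and 1 of 10 members differed between platforms at days 12, 19 and 26, beside 19.2%, 7.84% and 9.28% of all tested miRNAs. With each array centred on its median, 1, 1 and 0 members differed. Leaving out RNA samples, the day 12 count was 1 without day 12 a and 2 without day 0 a, day 0 b, day 19 a, day 19 b, day 26 a or day 26 b. The day 19 count was 0 without day 19 a or day 19 b and 1 without day 0 a, day 0 b, day 26 a or day 26 b, and the day 26 count was 0 without day 26 a or day 26 b and 2 without day 0 b.

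**Figure D5:**
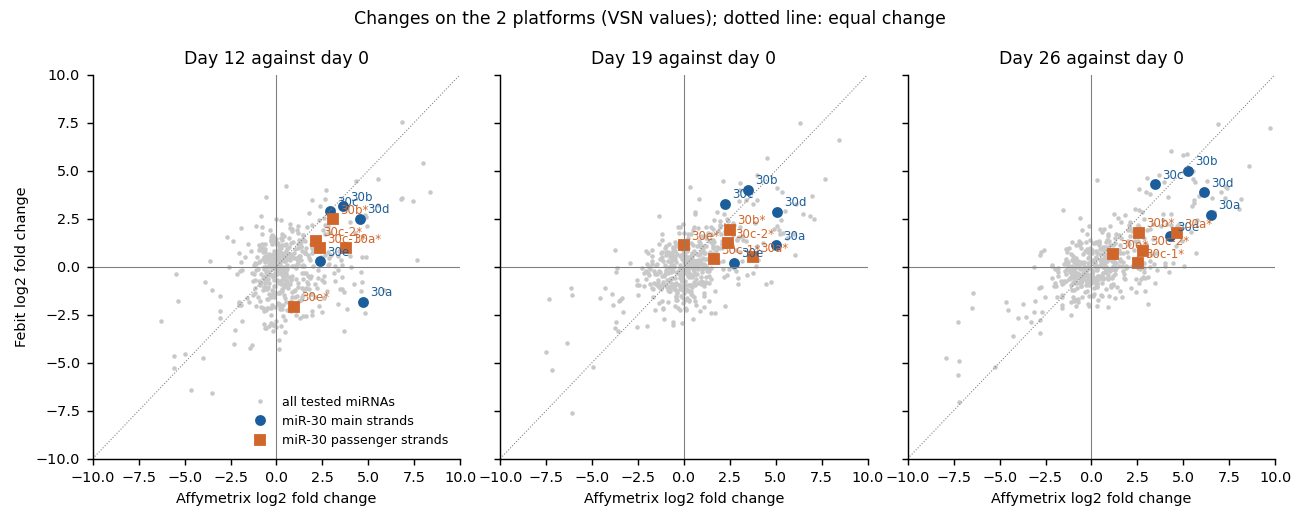
Log2 fold change against day 0 on Affymetrix (horizontal) and Febit (vertical), VSN values, for the main strands (circles), the passenger strands (squares) and the 485 tested miRNAs (grey), with a dotted line for equal change. miR-30b and miR-30c lie near the dotted line at all 3 days, and miR-30a lies far below it at day 12 (4.70 against -1.83).

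The other normalization of each platform gave smaller log2 fold changes for the members called. With RMA values on Affymetrix 9 of 10 members were again called higher at each day, against 17.7%, 17.9% and 19.8% of all tested miRNAs, with log2 fold changes at day 26 from 0.78 for miR-30b* to 4.19 for miR-30d, and miR-30e* was not called (0.31, 0.02 and 0.36). With non-VSN values on Febit by title, 2, 3 and 3 members were called at days 12, 19 and 26, all of them higher and among miR-30b, miR-30c and miR-30d, against 4.74%, 4.95% and 5.36% of all tested miRNAs called higher. With day 12 a and day 19 b exchanged the numbers were 3, 3 and 4 (5.77%, 8.45% and 7.63% of all), where miR-30d was added at day 12 (1.39, SE 0.37, adjusted p 0.041) and miR-30a at day 26 (1.23, SE 0.32, adjusted p 0.038). Called in all 4 data sets were miR-30b and miR-30c at day 12, with miR-30d at days 19 and 26, while 3.71%, 3.30% and 4.74% of all tested miRNAs were called higher in all 4. With the exchange, miR-30d joined them at day 12 and miR-30a at day 26 (4.33%, 3.92% and 6.19% of all). No passenger strand was called in all 4 data sets at any day.

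The miRNAs outside the family whose changes lay closest to those of the main strands were found by the root mean square difference between their 6 log2 fold changes (3 days on each platform) and the median of the 5 main strands, as given above for each platform. The nearest 3 were miR-27b (0.596 log2 units), miR-26a (0.728) and miR-27a (0.757). miR-27b had log2 fold changes of 3.25, 3.99 and 5.53 with Affymetrix, while Febit gave 2.70, 3.44 and 5.00. Of the members, miR-30b (0.704), miR-30d (0.821) and miR-30c (0.986) were nearest to that median, to which they contribute, while miR-30e (1.84) and miR-30a (2.17) were farther from it than miR-30a* (1.48) and miR-30b* (1.51). This is a description over 6 values that share their day 0 arrays.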

How the data were processed

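The Affymetrix values were deposited by the authors as log2 values after RMA and as log2 values after VSN (a generalized log2 scale), per the labels with RMA and affy, whose versions are not given in the sources used here. For Febit the authors deposited the raw intensity of 8 features per miRNA, log2 values that were background corrected and quantile normalized (non-VSN), and log2 values after VSN. This makes 4 data sets of 8 arrays (32 records), assigned by title, and 0 columns were left unused. VSN values were used for the main results. In limma 3.58.1 (R 4.3.3) the 8 arrays of a data set were modelled by day, with empirical Bayes variances, 4 residual degrees of freedom and Benjamini-Hochberg adjustment over the 485 tested miRNAs (82 strand pairs) per comparison. A result is called at an adjusted p under 0.05, and the fit was tested on simulated data. Errors are SE. Cultures a and b are biological replicates per the study, p-values measure the spread between them, and 2 per day limit the precision. Strand and platform differences were fitted to the difference on each array or between the arrays of 1 RNA sample. Named are the 10 members, the 3 nearest miRNAs and markers. The members, lists and tests were chosen with earlier results of these data known. Sequences, loci and gene spans came from RefSeq (GRCm38.p6). Figures used Python 3.11.15 and matplotlib 3.10.9. Alternatives were other normalizations, filters, fits and leaving out each array.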

Additional observations from a re-analysis of the deposited data

Results flagged for a closer look

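Changes of 3 members differed between the platforms by a test of the difference itself (limma over 485 miRNAs, Affymetrix minus Febit, log2 units). At days 12, 19 and 26 these were 3, 2 and 1 of 10 members, beside 19.2%, 7.84% and 9.28% of all tested miRNAs. Fewer members differed after each array was centred on its median, as given above. The platforms differ in range, so such a difference can be one of scale. For miR-30a the difference was 6.53 at day 12, 3.92 at day 19 and 3.81 at day 26 (SE 0.90 each). It was higher on Affymetrix in these comparisons, and at day 12 the platforms gave opposite signs. For miR-30a* the difference was 2.85 at day 12 and 3.29 at day 19 (SE 0.93). For miR-30e* it was 3.03 at day 12 (SE 0.91), where Affymetrix gave 0.93 and Febit -2.10, neither called on its own. The raw Febit signals of these 3 members at days 0 and 12 lay between 0.893 and 1.07 times the array median, and their part in the difference was not tested.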

How the results depend on the processing

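On Affymetrix, of 423 values of called changes against day 0 under alternatives, 417 stayed called in the same direction and 6 missed the threshold. On Febit 123 of 186 stayed called and 63 missed it, and none of these reversed. Counts of members moved as follows. On Febit at day 12 there were 2 with non-VSN values by title and with a variance trend, and 0 with the arrays of 2 days alone, which at day 19 gave 1. Day 19 against day 12 gave 0 with non-VSN values either way, and day 26 against day 12 gave 0 by title, 1 with the exchange and 1 after quantile normalization. On Affymetrix day 26 against day 12 gave 2 with RMA values and 3 with miRNAs present on both platforms. Strand differences numbered 3 at day 19 with RMA values and 1 at day 26 after quantile normalization on Affymetrix. On Febit they numbered 1 at day 12 with the exchange or quantile normalization, and 1 by title and 3 with the exchange at day 19. At day 26 on Febit they numbered 1 after quantile normalization and 0 with the arrays of 2 days. With miRNAs present on both platforms the pairs called there at day 26 could not be tested, as their passenger strands were left out. Among the pairs that remained 0 were called. Platform differences numbered 1, 1 and 0 at days 12, 19 and 26 after centring, 4 at day 26 with RMA and non-VSN values by title, and 4 and 5 at days 19 and 26 with the exchange. The causes were not tested. Signs reversed for changes that were not called, and for 1 that was (miR-30e* from day 12 to day 19), namely miR-30e* at day 19 on Affymetrix (0.02 with RMA, -0.37 to 0.34 without 1 array), and on Febit by title miR-30e at day 12 (-0.07, and -0.30 to 0.89 without 1 array), miR-30a at day 19 (-0.25), miR-30e* at day 19 (-0.37) and miR-30e* from day 12 to day 19 (-0.12), and after centring miR-30e at day 19 (-0.02). With day 12 a and day 19 b exchanged the 4 by-title values were 0.29, 0.32, 0.30 and 1.23, with the sign of the VSN values. On Febit without 1 array the values also crossed 0 at day 19 for miR-30e (-0.15 to 0.54), miR-30a* (-0.14 to 1.11) and miR-30c-1* (-0.35 to 1.12), and at day 26 for miR-30c-1* (-0.56 to 0.90), miR-30c-2* (-0.03 to 1.67) and miR-30e* (-0.03 to 1.33).

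Leaving out 1 array, members called on Febit ranged from 0 to 4 at day 12, 0 to 3 at day 19, 1 to 4 at day 26, 0 to 2 at day 19 against day 12 and 0 to 2 at day 26 against day 12, and on Affymetrix from 0 to 2 at day 26 against day 12. Strand differences ranged from 0 to 1, 1 to 2 and 1 to 3 on Affymetrix and 0 to 4, 0 to 2 and 0 to 2 on Febit, and platform differences from 1 to 3, 0 to 2 and 0 to 2.

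Deviations of same-lettered cultures correlated between -0.085 and 0.095 for day 0 with a later day in all 4 data sets. Between later days they correlated between 0.073 and 0.351 (Affymetrix VSN), -0.138 and 0.094 (Febit VSN), 0.117 and 0.527 (RMA) and 0.179 and 0.616 (non-VSN by title). The values 0.351, 0.527 and 0.616 belong to days 12 and 19. For non-VSN by title these days hold the arrays whose titles disagree with the raw arrays, so 0.616 does not bear on pairing. The letters are not stated to pair the cultures and were not taken to do so, which these correlations do not settle. With the letter as a replicate block, members called were 2 on Febit at day 12, 1 on Febit at day 26 against day 12 and 1 on Affymetrix at day 26 against day 12, strand differences on Febit at day 26 were 1 and platform differences at day 26 were 2. Signals near the array median limit what the Febit array can show for the passenger strands.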
